A study of Mus musculus with 7 samples.

Results

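Genes that mark tuft cells were examined in sorted mouse Paneth cells (PCs) from animals given tumour necrosis factor (TNF). The genes came from a list of 32 symbols used for tuft cell identity, chemosensory signalling, leukotriene and prostaglandin synthesis and cytokine output. Of these, 31 were matched by symbol and Ensembl identifier among the 55414 rows of the count table and are described here. PCs had been purified with a cell sorter from the small intestine of C57BL/6J mice 15 h after TNF or, in controls, after phosphate-buffered saline (PBS). There were 3 PBS and 4 TNF libraries, each from a different mouse, and no other agent or allele is labelled in either group. No source used here gives the TNF dose, the age of the mice or the antibodies of the sort.

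Tuft cells are rare epithelial cells that sense the contents of the gut lumen through a taste-like cascade, in which a receptor, a G protein and a phospholipase open the cation channel TRPM5. They arise under the transcription factor POU2F3 and are the main epithelial source of interleukin 25 (IL-25), which acts on innate lymphoid cells in the type 2 response to parasites. They also make leukotrienes, prostaglandins and acetylcholine, and they share many signalling genes with leukocytes.

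Library totals ran from 15511455 to 19193721 counts. Values per library are CPM, the counts per 1000000 counts of a library size adjusted by TMM, a method that lines up the bulk of the genes between libraries. Markers of the labelled cell type were abundant, as 10 PC genes (Lyz1, Ang4 and Defa24 among them) summed to 165235 to 266673 CPM in the PBS libraries and 184843 to 323720 CPM in the TNF libraries. The tuft cell genes summed to 3104, 4695 and 2777 CPM in PBS replicates 1 to 3 and to 1620, 919, 1365 and 650.1 CPM in TNF replicates 1 to 4. The libraries of a group kept much the same order across the genes. PBS replicate 2 was the highest PBS library for 31 of 31 genes and PBS replicate 3 the lowest for 22. TNF replicate 1 was the highest TNF library for 28 of 31 genes and TNF replicate 4 the lowest for 27. The PC genes ran the other way, with their lowest TNF sum in TNF replicate 1 (184843 CPM) and their highest in TNF replicate 4 (323720 CPM). How many of all genes tested kept such an order was not counted. Counts without the libraries at the outer ends, PBS replicate 2 and TNF replicate 4, and without TNF replicate 1 are given beside the main ones.

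Tuft cell genes were lower after TNF across every functional group of the list. Of 31 genes, all of which had enough counts to be tested, 25 fell and 0 rose (edgeR quasi-likelihood test, adjusted p under 0.05 over 14329 genes). Of all genes tested, 30.1% fell and 29.5% rose. These are bulk samples, in which fewer cells of a type and less RNA per cell cannot be told apart. No tuft cell gene rose at an unadjusted p under 0.05 (0 genes) or in the DESeq2 test (0 genes). The median log2 fold change of the 31 genes was −1.43, with a range from −3.17 to −0.53, against a median of 0.0017 over all genes tested. A fall of at least 2-fold was found for 23 genes (17.2% of all genes tested) and one of at least 4-fold for 8 genes (6.63% of all genes tested). For 26 genes every TNF library lay below every PBS library, an order that 30.9% of all genes tested showed. Without PBS replicate 2 and TNF replicate 4, 20 genes fell, 0 rose and the median was −0.91. Without TNF replicate 1, 30 genes fell, 0 rose and the median was −1.55. Without a filter on low counts, 19 genes fell and 0 rose.

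**Figure D1:**
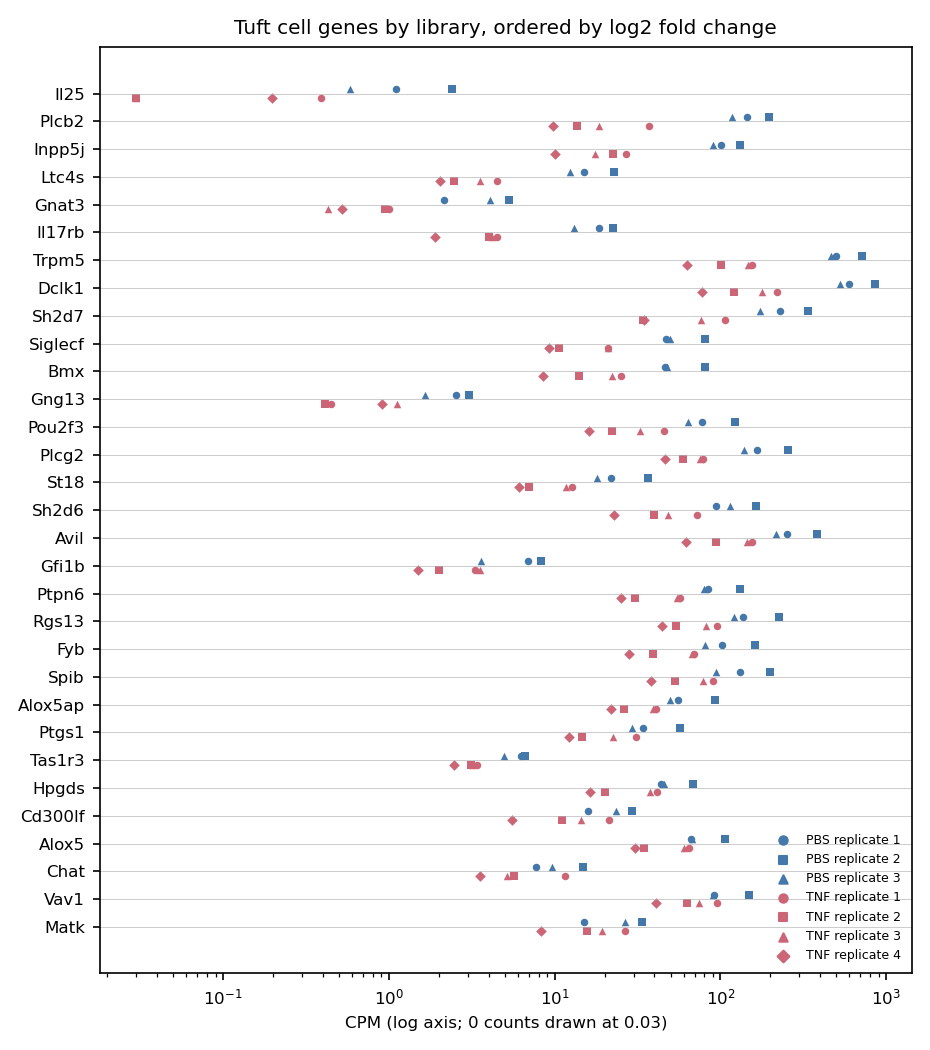
CPM (x axis, log scale) of the 31 tuft cell genes (y axis, ordered from the largest to the smallest fold change) in each library, with PBS in blue, TNF in red and 1 symbol per replicate. For 26 genes the red symbols all lie left of the blue ones, and PBS replicate 2 (blue square) is the highest PBS library throughout. TNF replicates 2 and 3 had 0 counts of Il25 and are drawn on top of each other at the left edge.

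The transcription factors of the list all fell, 4 of 4, with a median log2 fold change of −1.35. Pou2f3 (ENSMUSG00000032015, chromosome 9, 43035228 to 43121666 on GRCm39), the factor without which tuft cells do not form, was at 77.3, 123 and 63.5 CPM in PBS replicates 1 to 3 and 45.6, 22.1, 32.9 and 16.1 CPM in TNF replicates 1 to 4. All TNF libraries were below all PBS libraries, and the log2 fold change was −1.59 ± 0.38 (SE, edgeR adjusted p = 0.00875), which left 33.3% of the PBS level. Spib, an ETS factor also known from B cells and M cells, was at 132, 200 and 94.7 CPM after PBS and 90.1, 52.9, 79.1 and 38.0 CPM after TNF. The lowest PBS and the highest TNF library of Spib were close to each other, and its log2 fold change was −1.13 ± 0.35 (edgeR adjusted p = 0.027). Spib did not pass without PBS replicate 1 (−1.18, edgeR adjusted p = 0.0716) or without PBS replicate 2 (−0.80, edgeR adjusted p = 0.0728), nor without a filter on low counts (edgeR adjusted p = 0.1002). Gfi1b, a zinc finger repressor known from blood cells, had 6.91, 8.24 and 3.60 CPM after PBS and 3.30, 2.00, 3.53 and 1.503 CPM after TNF. St18, a zinc finger factor, had 21.7, 36.8 and 17.96 CPM after PBS and 12.8, 7.01, 11.7 and 6.08 CPM after TNF. Neither gene overlapped between the groups, and the log2 fold changes were −1.27 ± 0.36 for Gfi1b and −1.43 ± 0.30 for St18 (edgeR adjusted p = 0.00792 and 0.00173). Gfi1b did not pass without PBS replicate 2 (−1.01, edgeR adjusted p = 0.0595).

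Of the chemosensory genes on the list 6 of 6 fell, with a median of −1.99. The channel Trpm5 (ENSMUSG00000009246, chromosome 7, 142622890 to 142648379 on GRCm39) was at 495, 713 and 467 CPM after PBS and 156, 100.5, 147 and 63.0 CPM after TNF. The lowest PBS library was far above the highest TNF library, and the log2 fold change was −2.26 ± 0.31 (edgeR adjusted p = 0.000295). Plcb2 (ENSMUSG00000040061, chromosome 2, 118537979 to 118559111 on GRCm39), the phospholipase C upstream of the channel, went from 145, 195 and 117 CPM to 37.1, 13.7, 18.4 and 9.81 CPM. Only the sparsely counted Il25 had a larger fall on the list. The log2 fold change of Plcb2 was −2.94 ± 0.47 (edgeR adjusted p = 0.0017), leaving 12.99% of the PBS level. TNF replicate 1 was the highest of the 4 TNF libraries for this gene.

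The G protein subunits of the cascade were low in every library. Gnat3, the alpha subunit gustducin, had 2.16, 5.34 and 4.08 CPM after PBS and 1.01, 0.942, 0.428 and 0.523 CPM after TNF, over 217 and 50 counts in all. Gng13, the gamma subunit, had 2.53, 3.05 and 1.64 CPM after PBS and 0.447, 0.412, 1.12 and 0.915 CPM after TNF. Exons of Chtf18 on the other strand cover 43.8% of those of Gng13, with 625 counts against 182. Both genes were without overlap between the groups, with log2 fold changes of −2.40 ± 0.46 and −1.72 ± 0.50 (edgeR adjusted p = 0.000459 and 0.00818). Without PBS replicate 2 and TNF replicate 4, Gng13 no longer passed (−1.63, edgeR adjusted p = 0.0554). Rgs13, a regulator that speeds the turn-off of G proteins, was at 136, 225 and 121 CPM after PBS and 95.3, 53.7, 81.7 and 44.5 CPM after TNF, a smaller fall of −1.22 ± 0.31 (edgeR adjusted p = 0.0106) that did not pass without a filter on low counts (edgeR adjusted p = 0.0571). Tas1r3, a subunit of the sweet and umami taste receptors, was at 6.30, 6.61 and 4.98 CPM after PBS and 3.41, 3.12, 3.16 and 2.48 CPM after TNF. Its fall was −0.97 ± 0.26 (edgeR adjusted p = 0.0052), the smallest of the 6 genes. Of its annotated exon bases, 99.2% also lie in exons of Dvl1 on the other strand, a gene with 10251 counts against 537 for Tas1r3, and no source used here says whether strand was used in counting.

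Dclk1 (ENSMUSG00000027797, chromosome 3, 55149618 to 55446493 on GRCm39), the doublecortin-like kinase most often used to stain tuft cells, was the most counted gene of the list. It was at 594, 857 and 523 CPM after PBS and 220, 121, 178 and 77.3 CPM after TNF. The groups were far apart, with a log2 fold change of −2.14 ± 0.35 (edgeR adjusted p = 0.00117) and 22.7% of the PBS level left. Avil, which encodes advillin, an actin-binding protein of the microvilli, was at 252, 382 and 217 CPM after PBS and 155, 93.7, 145 and 62.0 CPM after TNF. Its fall of −1.32 ± 0.34 (edgeR adjusted p = 0.0111) was smaller than that of Dclk1, and its groups did not overlap either. Without a filter on low counts Avil did not pass (edgeR adjusted p = 0.0595).

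Of 9 adaptor and signalling genes, 7 fell, with a median of −1.43 over the 9. Inpp5j, an inositol polyphosphate 5-phosphatase, had the largest fall of them, from 101, 132 and 90.8 CPM to 27.1, 22.5, 17.5 and 10.001 CPM (−2.48 ± 0.29, edgeR adjusted p = 9.2e-05). The SH2-domain gene Sh2d7 was at 228, 336 and 173 CPM after PBS and 107, 34.0, 76.2 and 34.4 CPM after TNF. Its TNF libraries fell into a higher pair, replicates 1 and 3, and a lower pair, and the log2 fold change was −1.96 ± 0.50 (edgeR adjusted p = 0.0151). Sh2d6, a related gene, was at 93.5, 164 and 114 CPM after PBS and 72.3, 39.9, 48.2 and 22.9 CPM after TNF (−1.43 ± 0.38, edgeR adjusted p = 0.0143, and 0.0579 without a filter on low counts). Bmx, a kinase of the TEC family, was at 46.4, 81.0 and 47.7 CPM after PBS and 25.2, 14.1, 22.3 and 8.50 CPM after TNF (−1.73 ± 0.37, edgeR adjusted p = 0.00473). Neither gene overlapped between the groups.

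Plcg2, a phospholipase C that acts below tyrosine kinases, was at 166, 256 and 139 CPM after PBS and 78.8, 59.2, 75.8 and 46.5 CPM after TNF. Its log2 fold change of −1.52 ± 0.23 (edgeR adjusted p = 0.000281) had the smallest error of the list. Ptpn6, which encodes the phosphatase SHP-1, was at 84.0, 131 and 79.3 CPM after PBS and 56.7, 30.6, 54.7 and 25.2 CPM after TNF. Fyb (annotated as Fyb1), an adaptor known from T cells, was at 102, 161 and 80.6 CPM after PBS and 69.0, 39.4, 67.2 and 28.2 CPM after TNF. Both were without overlap, at −1.23 ± 0.33 and −1.17 ± 0.37 (edgeR adjusted p = 0.0126 and 0.0302). Without a filter on low counts neither passed (edgeR adjusted p = 0.0641 and 0.102). Fyb did not pass without PBS replicate 1, PBS replicate 2 or TNF replicate 2, with log2 fold changes of −1.24, −0.84 and −1.06 (edgeR adjusted p = 0.0685, 0.0778 and 0.0526).

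The other genes of this group, Vav1 and Matk, did not pass. Vav1, a signalling protein also known from lymphocytes, was at 91.7, 148 and 90.2 CPM after PBS and 96.0, 62.8, 74.6 and 40.7 CPM after TNF. TNF replicate 1 was above PBS replicates 1 and 3, and the log2 fold change was −0.68 ± 0.29 (edgeR adjusted p = 0.0766). Without TNF replicate 1 Vav1 passed, at −0.89 (edgeR adjusted p = 0.0313). Matk, a kinase that restrains SRC-family kinases, was at 15.1, 33.8 and 26.7 CPM after PBS and 26.6, 15.7, 19.2 and 8.30 CPM after TNF. Here 3 of 4 TNF libraries were above PBS replicate 1, and the log2 fold change of −0.53 ± 0.39 (edgeR adjusted p = 0.278) was the smallest of the list. Exons of Mrpl54 on the other strand cover 43.5% of those of Matk, with 2898 counts against 2642.

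**Figure D2:**
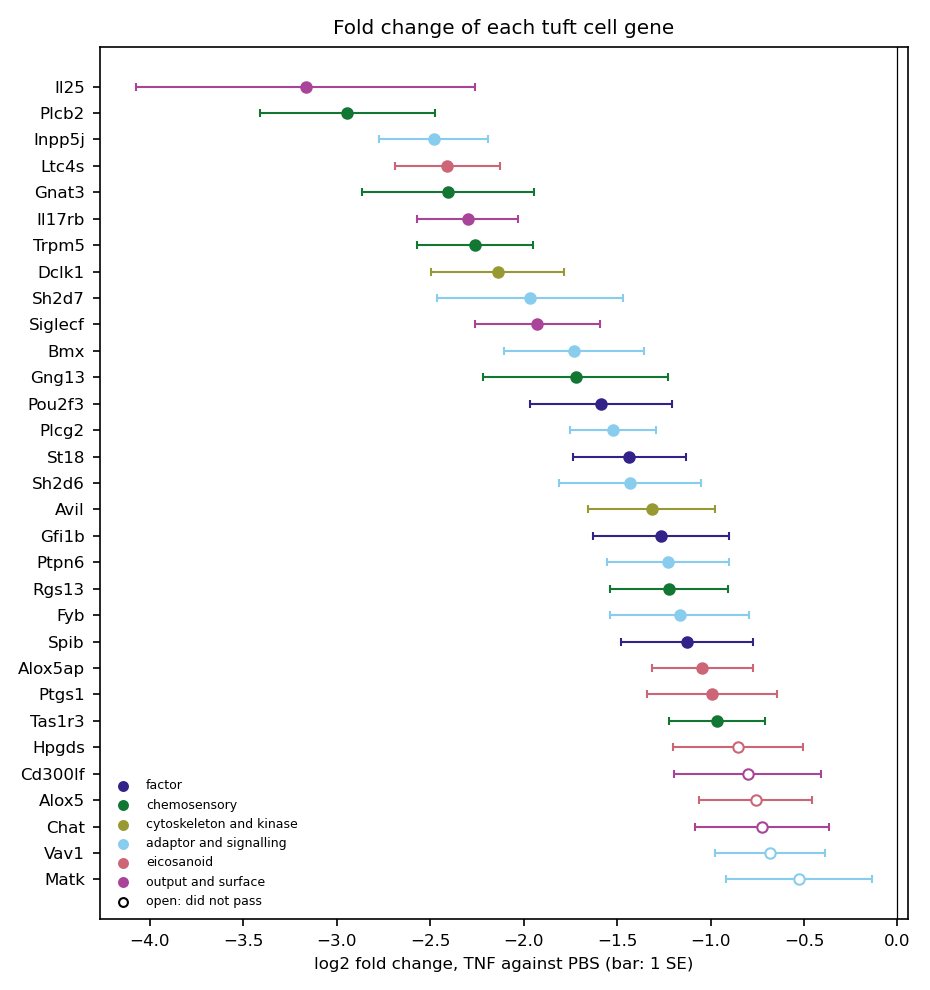
Log2 fold change of each tuft cell gene, TNF against PBS (x axis), with bars of 1 SE and colours for the functional group. All 31 points lie left of 0, and the 6 open points, with values from −0.85 to −0.53, did not pass the test.

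The eicosanoid genes were split, with 3 of 5 lower and a median of −0.99. Ltc4s, the leukotriene C4 synthase, went from 15.1, 22.7 and 12.4 CPM to 4.47, 2.47, 3.53 and 2.03 CPM. This was the lowest adjusted p of the list (6.51e-06 in edgeR, log2 fold change −2.41 ± 0.28), and 18.8% of the PBS level remained. The upstream steps of leukotriene synthesis moved less. Alox5ap, the protein that presents arachidonic acid to 5-lipoxygenase, was at 55.4, 93.0 and 49.4 CPM after PBS and 40.6, 26.3, 38.9 and 21.8 CPM after TNF (−1.04 ± 0.27, edgeR adjusted p = 0.00828). Alox5, 5-lipoxygenase itself, was at 66.7, 107 and 67.2 CPM after PBS and 64.5, 34.6, 60.3 and 30.5 CPM after TNF (−0.76 ± 0.30, edgeR adjusted p = 0.0609). Its TNF libraries were all below the PBS libraries, by a narrow gap, and the test was not passed. Alox5 passed without TNF replicate 1 (−0.94, edgeR adjusted p = 0.0442) or TNF replicate 3 (−0.91, edgeR adjusted p = 0.0349).

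On the prostaglandin side, Ptgs1, cyclooxygenase 1, was at 34.1, 56.8 and 29.2 CPM after PBS and 30.9, 14.7, 22.6 and 12.2 CPM after TNF. TNF replicate 1 was above PBS replicate 3, and Ptgs1 was the only gene of the list that passed with overlapping groups (−0.99 ± 0.35, edgeR adjusted p = 0.0386). Ptgs1 did not pass without PBS replicate 1, PBS replicate 2 or TNF replicate 2, with log2 fold changes of −1.09, −0.65 and −0.86 (edgeR adjusted p = 0.0632, 0.12 and 0.0719), nor without a filter on low counts (edgeR adjusted p = 0.135). Hpgds, the synthase of prostaglandin D2, was at 43.7, 67.9 and 45.5 CPM after PBS and 41.6, 20.02, 37.8 and 16.3 CPM after TNF (−0.85 ± 0.35, edgeR adjusted p = 0.0665). Its groups did not overlap, and it passed without TNF replicate 1 (−1.08, edgeR adjusted p = 0.0381) or TNF replicate 3 (−1.02, edgeR adjusted p = 0.0378).

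Of the genes for secreted signals and surface proteins, 3 of 5 fell, with a median of −1.93. Il25 (ENSMUSG00000040770, chromosome 14, 55170152 to 55173294 on GRCm39) was sparse, with 18, 47 and 11 counts in PBS replicates 1 to 3 and 7, 0, 0 and 3 counts in TNF replicates 1 to 4. Of its exon bases, 69.0% also lie in exons of a long noncoding RNA on the other strand, Gm62784. All TNF libraries were below all PBS libraries in CPM, and the log2 fold change of −3.17 ± 0.91 (edgeR adjusted p = 0.00806) had the largest error of the list. Without PBS replicate 2 it was −2.47 (edgeR adjusted p = 0.0726), and without TNF replicate 1 it was −4.36. Il17rb, a receptor subunit for IL-25, was at 18.4, 22.6 and 13.03 CPM after PBS and 4.47, 4.00, 4.17 and 1.90 CPM after TNF (−2.30 ± 0.27, edgeR adjusted p = 7.23e-06). Its groups were well apart, though 38.8% of its exon bases lie in exons of Actr8 on the other strand.

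Siglecf, a sialic acid-binding receptor also used to mark eosinophils, went from 46.7, 80.3 and 49.9 CPM to 20.9, 10.7, 21.0 and 9.28 CPM (−1.93 ± 0.33, edgeR adjusted p = 0.00114). Chat, the enzyme that makes acetylcholine, was at 7.72, 14.8 and 9.69 CPM after PBS and 11.6, 5.71, 5.13 and 3.53 CPM after TNF. Cd300lf, an inhibitory receptor that murine norovirus uses for entry, was at 15.8, 29.2 and 23.3 CPM after PBS and 21.2, 11.01, 14.3 and 5.56 CPM after TNF. In both genes TNF replicate 1 was above PBS replicate 1, and neither passed (−0.72 ± 0.36 and −0.80 ± 0.39, edgeR adjusted p = 0.101 and 0.112). Without TNF replicate 1, Chat was at −1.16 (edgeR adjusted p = 0.00164) and Cd300lf at −1.14 (edgeR adjusted p = 0.0192).

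Levels between genes were compared as mean CPM per kb of annotated exon. After PBS, Rgs13 was highest at 97.1 ± 33.9 (SD, n = 3), followed by Trpm5 at 87.3 ± 21.1, Avil at 83.5 ± 25.5, Sh2d7 at 80.7 ± 27.1 and Sh2d6 at 73.2 ± 21.5. These SDs overlap, but the genes of a library moved together, so the order was also read within libraries. Rgs13 was above Trpm5 in 3 of 3 PBS libraries. Each of the next 3 neighbours kept its order in 2 of 3. Dclk1, whose annotated exons span 21795 bases in all, was ninth at 30.2 ± 8.08. After TNF, Rgs13 was again highest at 41.6 ± 14.3 (SD, n = 4), followed by Avil at 33.5 ± 12.9, Sh2d6 at 27.1 ± 12.2 and Spib at 22.7 ± 8.31. The SDs overlap again, but each of these neighbours kept its order in 4 of 4 TNF libraries. Trpm5 was at 18.2 ± 6.75, Dclk1 at 6.85 ± 2.88 and Plcb2 at 2.901 ± 1.77 CPM per kb after TNF, and their ranks among the 31 genes were 6, 14 and 21, from 2, 9 and 12 after PBS.

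The tuft cell genes of a library went up and down together. In log2 CPM the median SD over the 31 genes was 0.437 within PBS and 0.591 within TNF. To compare the genes with each other, each level was divided by the summed CPM of 10 commonly used tuft cell genes, leaving out the gene itself (Dclk1, Trpm5, Avil, Sh2d6, Sh2d7, Gng13, Rgs13, Alox5ap, Pou2f3 and Il17rb). On this relative log2 scale the median SD was 0.123 within PBS and 0.174 within TNF. Dclk1 and Trpm5 made up 26.4% and 21.7% of the sum on average, and Avil 15.97%.

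Relative to the sum, 3 genes were lower and 15 higher after TNF at p = 0.0286 each, the smallest that 3 against 4 libraries allow (exact permutation test over the 35 ways to divide the libraries, two-sided). The adjusted p of 0.0458 over 14329 genes is not read as a call, since it is under 0.05 through the many genes that lay higher against a reference that itself fell. Of all genes tested, 0.558% were lower and 61.8% higher relative to these tuft cell genes at that p. Without overlap between the groups, 4 genes were lower and 18 higher on this scale, against 0.935% and 78.0% of all genes tested. The genes that were lower at this p were Plcb2, Trpm5 and Dclk1. Plcb2 was at −3.75, −3.90 and −3.89 on this scale after PBS and −4.58, −5.13, −5.32 and −5.07 after TNF, a difference of −1.18. Trpm5 was at −1.56, −1.63 and −1.45 after PBS and −2.25, −1.97, −2.04 and −2.15 after TNF, a difference of −0.56. For Dclk1 the difference was −0.45, from a mean of −1.23 ± 0.04 (SD, n = 3) to −1.68 ± 0.08 (SD, n = 4).

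The genes that were higher relative to the sum were St18, Ptpn6, Avil, Fyb, Rgs13, Spib, Gfi1b, Pou2f3, Ptgs1, Alox5ap, Hpgds, Cd300lf, Alox5, Vav1 and Matk. Their relative differences ran from 0.27 for Pou2f3 to 1.33 for Matk. Vav1, for example, was at −4.41, −4.29 and −4.27 after PBS and −3.22, −2.97, −3.33 and −3.07 after TNF, a difference of 1.18. A higher relative value is a ratio to a sum that was lower after TNF and is not a higher level in CPM. Of these 15 genes, 10 fell in CPM and Hpgds, Cd300lf, Alox5, Vav1 and Matk did not pass. With the geometric mean of the 10 genes as the reference, in which each counts alike, 4 genes were lower (Ltc4s beside the same 3) and 12 higher at the smallest p, against 0.963% and 61.5% of all genes tested, and Pou2f3, Avil and Cd300lf no longer reached it, with Pou2f3 at 0.06 (exact permutation p = 0.771). This reference was chosen after the data were seen.

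**Figure D3:**
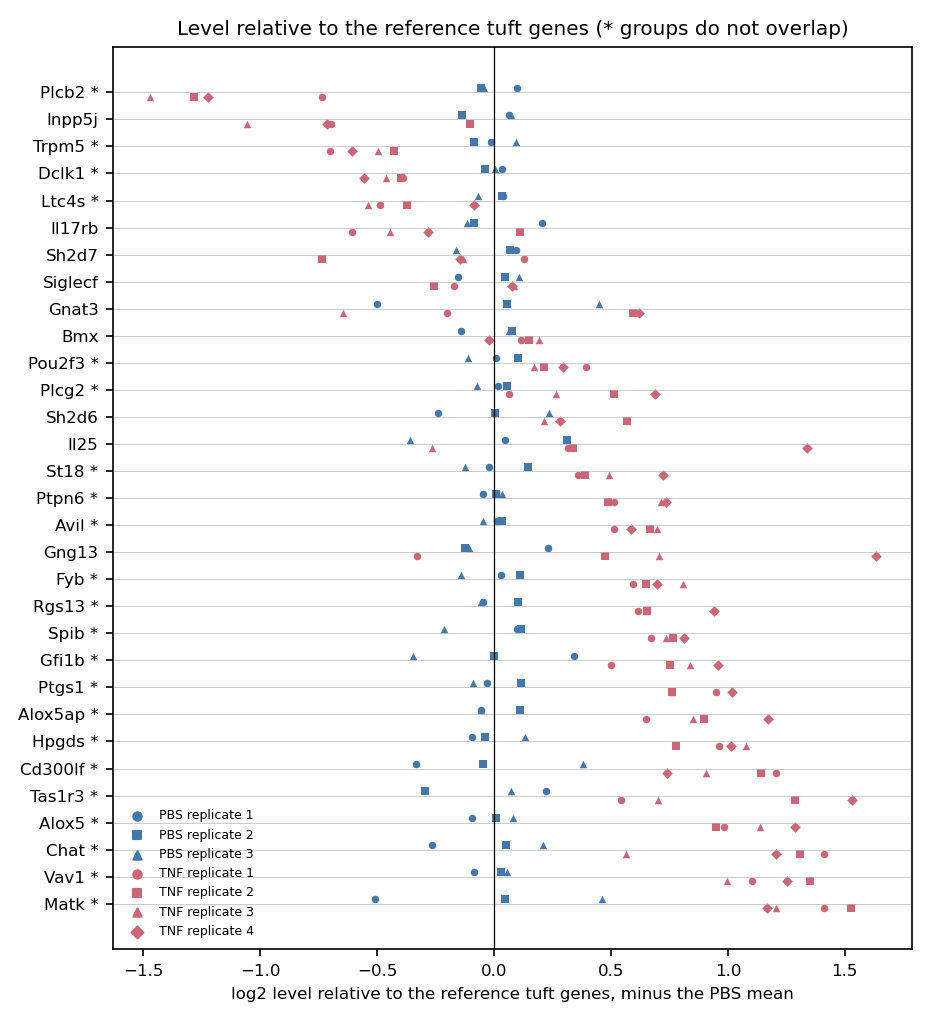
Log2 level of each tuft cell gene relative to the summed reference genes, minus its mean over the PBS libraries (x axis), per library, with PBS in blue and TNF in red and a star where the groups do not overlap. Plcb2, Trpm5, Dclk1 and Ltc4s are the 4 starred genes to the left of 0, and 18 starred genes lie to its right, up to a difference of 1.33 for Matk.

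Of the 31 genes, 15 are also known in leukocytes. In that subset 10 of 15 fell, with a median of −1.13, and in the other 16 genes 15 fell, with a median of −1.84. The one of these 16 that did not pass was Chat. No test of the difference between the subsets was made. Leukocyte markers were low in all libraries, with 12 genes summing to 25.4 to 33.3 CPM after PBS and 22.6 to 31.1 CPM after TNF. Ptprc and Lyz2 made up most of the PBS sums, at 16.4 and 9.71 mean CPM of 28.4. Tyrobp and Cd3e were at 0 counts in every library, 1 of the 5 tested markers fell and 1 rose, and their median was 0.14. The marker that rose was S100a9, a neutrophil protein, with 0 counts in every PBS library and 103, 116, 60 and 120 counts in TNF replicates 1 to 4. Its partner S100a8, too sparse to be tested, had 0 counts after PBS and 32 after TNF. Cd79b, a part of the B cell receptor, rose from 0.376 to 1.93 mean CPM (2.33, edgeR adjusted p = 0.0023). The leukocyte marker that fell was Ptprc, which encodes CD45 (−0.95, edgeR adjusted p = 0.027). Ptprc was at 11.4, 26.2 and 11.5 CPM after PBS and 7.27, 6.24, 12.7 and 7.71 CPM after TNF, with TNF replicate 3 above PBS replicates 1 and 3. PBS replicate 2 was its highest PBS library, as for the tuft cell genes. Which cells the Ptprc counts came from was not tested. Markers of mast cells and eosinophils summed to at most 0.374 CPM in any library, with 5 of 8 at 0 counts everywhere.

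Promoter sequences are shown for the genes with a match to either of a pair of motifs that concern factors on the list. The octamer ATGCAAAT is bound by POU2F factors, and GAGGAAGT is of the kind bound by ETS factors such as SPIB. The windows ran from 250 bases before to 50 bases after the gene start in RefSeq on GRCm38.p6, and 26 of the 31 genes had 29 windows between them. Entries for Pou2f3, St18, Inpp5j, Alox5ap and Il25 were missing. On either strand, the octamer was found in 1 of these 29 windows and in 1.74% of all 32851 windows, and the ETS motif in 4 of the 29 windows, each of another gene, and in 3.20% of all windows. The matches do not overlap each other. They are printed below 5′ to 3′ on the strand of the gene, 30 bases each, with the motif in capitals.
Ptgs1, plus strand, chr2:36230391-36230420: aggctggagcaGAGGAAGTtggcggtcagc
Hpgds, minus strand, chr6:65144761-65144790: gcttttaggtgGAGGAAGTggcctctggct
Hpgds, minus strand, chr6:65144886-65144915: ctttactctttATGCAAATacgttggacta
Cd300lf, minus strand, chr11:115133974-115134003: agtggctaaagGAGGAAGTgccgagtgaga
Vav1, plus strand, chr17:57279078-57279107: cagtcacagaaGAGGAAGTggtgttgtagt

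The ETS motif began 24 bases before the start of Ptgs1, 49 bases before that of Hpgds, 11 bases before that of Vav1 and at the start of Cd300lf, and the octamer of Hpgds began 174 bases before its start. The genes with the ETS motif were among those with the smaller changes, with log2 fold changes of −0.99 for Ptgs1, −0.85 for Hpgds, −0.80 for Cd300lf and −0.68 for Vav1, and only Ptgs1 of them passed the test. Genes with a window but no match, such as Matk (−0.53), Chat (−0.72) and Alox5 (−0.76), changed as little. A link between the motif and the size of the change was not tested. A match describes letters in the window and not binding.

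Genes that work with the listed ones were examined in 5 further lists, against 30.1% of all genes tested that fell and 29.5% that rose. Of 11 factors of tuft and secretory fate, all tested, 9 fell and 1 rose, with a median of −1.77. Pou2af3 and Pou2af2, coactivators of POU2F3, fell by 3.38 and 1.92 on the log2 scale, from 17.7 to 1.68 mean CPM and from 14.9 to 3.92 mean CPM. Ascl2, a factor of crypt stem cells, was at −4.65 the homeobox factor Hmx2 at −2.49 and Sox4, a factor of early secretory and tuft cells, at −2.09, while Runx1 rose by 0.68.

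Of 17 other genes used as tuft cell markers, 13 fell and 2 rose, with a median of −1.11. Trim38 (−5.03), Nrep (−3.03) and Kctd12 (−2.50) fell the most, and Trim40 (2.34) and Krt18 (0.47), a keratin that many gut epithelial cells hold, rose. Trim38 was sparse, with 34, 141 and 51 counts in PBS replicates 1 to 3 and 5, 3, 0 and 0 counts in TNF replicates 1 to 4. In chemosensory signalling 6 of 9 genes could be tested, of which 4 fell and 1 rose, with a median of −1.59. The short-chain fatty acid receptors Ffar3 and Ffar2 were at −2.51 and −1.95, the calcium release channel Itpr2 was at −2.08, and Trpm4, a cation channel near in kind to Trpm5, was at −1.24. Gnb1, a G protein beta subunit found in most cells, rose by 0.55. Itpr3, the calcium release channel of taste cells, was at −0.05 (edgeR adjusted p = 0.693), with 149 mean CPM after PBS and 144 mean CPM after TNF.

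Eicosanoid genes outside the tuft cell list were lower for 3 and higher for 2 of 7 tested, shares near those over all genes tested (30.1% lower and 29.5% higher). Hpgd, which breaks prostaglandins down, fell from 137 to 5.24 mean CPM (−4.72, edgeR). Ptges, a synthase of prostaglandin E2, rose from 0.603 to 6.71 mean CPM (3.44, edgeR). In the type 2 cytokine circuit 3 of 5 tested genes rose, and Il13ra1 and Stat6 did not pass. The receptor chains Il4ra and Il17ra rose by 1.64 and 1.01. Il33, an alarmin, had 3 counts in PBS and 126 in TNF, summed over libraries, a ratio of 33.4 (95% exact binomial interval 11.2 to 164, counting error only). Il13 and Il4 had 0 counts in every library.

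Markers of other crypt and villus cells moved with TNF as well, and their part in the values above was not tested. The counts below can be read against the 30.1% of all genes tested that fell and the 29.5% that rose. Enteroendocrine markers fell for 5 of 11 genes and rose for 1, with sums of 140, 158 and 39.6 CPM after PBS and 69.9, 59.1, 60.9 and 91.2 CPM after TNF. Tac1, a neuropeptide precursor and the marker that rose, made up much of the TNF sums, with 38.7, 35.6, 32.5 and 57.5 CPM after TNF and 0.318 to 2.72 CPM after PBS. Without Tac1, a choice made after the data were seen, the sums were 137, 156 and 39.3 CPM after PBS and 31.2, 23.6, 28.5 and 33.7 CPM after TNF, and the groups did not overlap. Stem cell markers fell for 7 of 8 genes, goblet cell markers for 5 of 9 with 1 higher, and enterocyte markers for 5 of 7 with 1 higher. The sums of these 3 lists did not overlap between the groups, as those of the tuft cell genes did not. Stem cell markers summed to 3640 to 4996 CPM after PBS and 2049 to 2813 CPM after TNF, and enterocyte markers to 649 to 810 CPM after PBS and 303 to 375 CPM after TNF. Vil1 made up most of the enterocyte sums, at 605 mean CPM of 723 after PBS and 273 of 335 after TNF. The enterocyte marker that rose was Slc5a1 (0.46). Goblet cell markers summed to 11497 to 20948 CPM after PBS and 9492 to 11004 CPM after TNF. Of 8 M cell markers 6 could be tested, of which 5 rose and Spib, which is on both lists, fell. Of the untested M cell markers, Gp2 had 0 counts in every library and Sox8 had 3 counts in PBS and 4 in TNF. Whether M cells changed in number was not tested. PC markers rose for 3 of 10, close to the share of all genes tested, and fell for 1, with a median of 0.24. Of the surface markers often used to sort PCs, Kit fell by 1.68 and Cd24a by 0.46 on the log2 scale. Stromal and endothelial markers summed to at most 2.44 CPM in any library, and 1 of them, Vim, could be tested and fell.

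**Figure D4:**
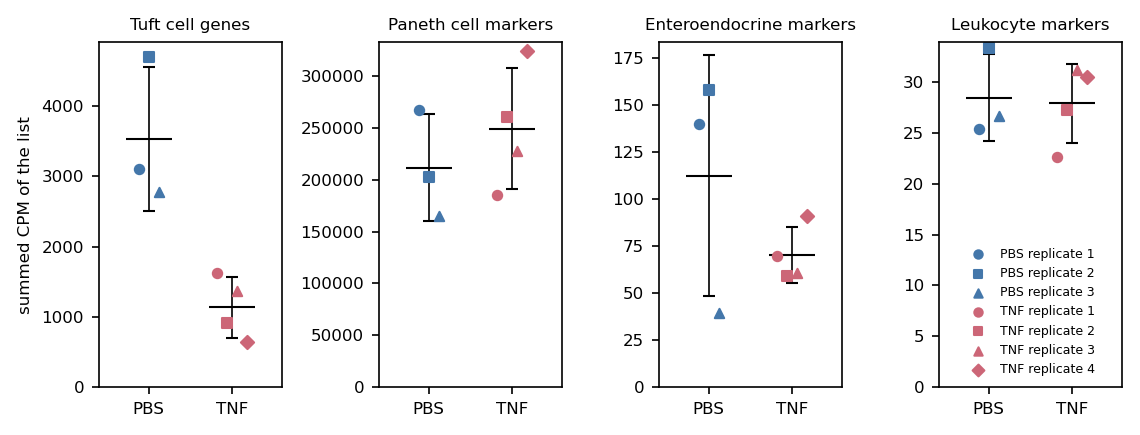
Summed CPM of the tuft cell genes and of PC, enteroendocrine and leukocyte markers (y axes, each starting at 0) per library, with group means and SD (3 PBS and 4 TNF libraries). The tuft cell genes lie between 2777 and 4695 CPM after PBS and between 650.1 and 1620 CPM after TNF, and the groups overlap in the PC, enteroendocrine and leukocyte panels. Without Tac1 the enteroendocrine sums would not overlap (39.3 to 156 CPM after PBS, 23.6 to 33.7 CPM after TNF).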

How the data were processed

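Bulk RNA of sorted PCs had been sequenced single-end (Element AVITI). Raw counts per gene, as whole numbers, were deposited by the authors in 1 column for each of the 7 libraries. The submitters' processing notes name FastQC, Trimmomatic 0.39, STAR 2.7.10a and DESeq2, and the builds mm10 and mm39, without roles. For the counting program, the annotation and strand, the choice was not stated in the sources used here. Counts of genes with overlapping exons are thus uncertain. All columns were matched to samples by name, and groups were taken from the treatment labels.

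Symbols, coordinates and merged exon lengths came from GENCODE M39 on GRCm39 (54749 of 55414 identifiers found). The authors may have counted on other gene models. Of the 32 listed genes, 1 is not reported here. Promoters came from RefSeq on GRCm38.p6.

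TNF was compared with PBS in R 4.3.3 with edgeR 4.0.16 (quasi-likelihood, robust, two-sided) over all 7 libraries, with no covariate, after filterByExpr (14329 genes) and TMM scaling. p was adjusted by Benjamini-Hochberg over all genes tested, and "fell" and "rose" mean an adjusted p under 0.05. The fit was first tested on simulated data. Relative levels were log2((CPM + 0.5)/(reference CPM + 0.5)), compared by an exact permutation test. For these, adjustment over the listed genes alone had been planned and was replaced by adjustment over all genes tested. With 3 and 4 mice, p measures the spread between these mice. Totals of 15511455 to 19193721 counts leave genes near 1 CPM, such as Il25, with few counts per library.

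The listed genes and all other lists were chosen with earlier results of these data known, so they are described by counts and medians without a test. All 31 genes found are named, and of other lists up to 4 genes with the largest changes, with further genes, such as Pou2af2, named after their values were seen. Alternatives were the DESeq2 1.42.0 size factors and Wald test, scaling by total counts, scaling without alpha-defensins and Lyz1, other filters on low counts, a replicate block, leaving out each library, leaving out PBS replicate 2 with TNF replicate 4, and the geometric mean reference. The last 2, and the enteroendocrine sum without Tac1, were added after the data were seen.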

Additional observations from a re-analysis of the deposited data

Results flagged for a closer look

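In TNF replicate 4, Rgs13 had a relative log2 level of −2.74, apart from the other 3 TNF libraries. The gap to the nearest of them was 0.888 of the range of the group, above the Dixon limit for 4 values. It was 1 of 63 values examined in the TNF group, and chance alone marks about 1 in 20.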

How the results depend on the processing

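The number of tuft cell genes that fell was 25 under the main settings. It was 25 with DESeq2 size factors or without alpha-defensins and Lyz1 in the scaling, 26 with total counts, 24 of 30 with a filter of 1 CPM in 3 libraries (which removed Il25), 28 in the DESeq2 Wald test (Alox5, Vav1 and Cd300lf added) and 19 without a filter on low counts. Without that filter Spib, Rgs13, Avil, Sh2d6, Ptpn6, Fyb and Ptgs1 were lost and Chat was gained. No tuft cell gene rose under any of these settings, and none changed sign (0 genes). Leaving out 1 library at a time gave 20 to 30 genes, medians from −1.55 to −1.07 and log2 ratios of the summed CPM from −1.85 to −1.37 (main −1.63). Without PBS replicate 2 Gfi1b, Spib, Fyb, Ptgs1 and Il25 were lost, without PBS replicate 1 Spib, Fyb and Ptgs1, and without TNF replicate 2 Fyb and Ptgs1. Without TNF replicate 1 Vav1, Alox5, Hpgds, Chat and Cd300lf were gained, and without TNF replicate 3 Alox5 and Hpgds. Scaling by total counts moved the median of all genes to −0.16 and that of the tuft cell genes to −1.56, and called 4614 of all genes lower and 3147 higher, against 4314 and 4229. Libraries of the same replicate number did not deviate together (correlations of −0.299, −0.031 and −0.174 for numbers 1 to 3, and 0 of 3 PBS libraries correlated best with their own number). With 3 numbers this cannot show whether libraries shared a day or batch, and the labels give no pairing. With the replicate number as a block, 22 tuft cell genes fell (Gfi1b, Tas1r3 and Ptgs1 lost), with a median of −1.22. Relative levels had the same counts under all scalings, and had too few splits for a test without a library. The cause of these changes was not tested. Depth limits Il25, Gnat3 and Gng13, which had under 6 CPM in every library.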
